A study of Mus musculus with 12 samples.

Results

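The genes of oxidative phosphorylation were followed through the differentiation of C2C12 cells, a mouse myoblast line that fuses into myotubes when serum is withdrawn. The members are all nuclear protein-coding genes of the mm9 genome with a symbol that starts with Nduf, Uqcr, Atp5 or Cox4 to Cox8, and Sdha, Sdhb, Sdhc and Sdhd. The GENCODE M1 annotation holds 91 of them among 22202 protein-coding genes. By symbol alone, 42 were assigned to complex I, 4 to complex II, 8 to complex III, 19 to complex IV and 18 to complex V. Of the 91, 83 were counted as subunits. The other 8 share a symbol but are no subunits, namely the complex I assembly factors Ndufaf1 to Ndufaf4, Atp5s, Atp5sl, Cox4nb and Atp5l-ps1. They were kept, because the rule goes by symbol.

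The data are 12 ChIP-seq libraries, in which fragments bound to a modified histone H3 are isolated with an antibody and sequenced. There was 1 library for each of 6 marks in near-confluent myoblasts in 10% serum and in myotubes about 5 days after serum withdrawal, which had been freed of unfused cells with a light trypsin treatment. Both came from C2C12, a single line of the C3H strain, at passages 15 to 18. No value has a replicate, no input library was used here, and every difference below compares 2 libraries and not 2 conditions.

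Oxidative phosphorylation takes place in the inner mitochondrial membrane. Complexes I and II pass electrons from NADH and succinate to ubiquinone, complex III passes them to cytochrome c, and complex IV, cytochrome c oxidase, passes them to oxygen. The proton gradient that this builds drives complex V, the ATP synthase. Most subunits are encoded in the nucleus by genes that every cell expresses from CpG-rich promoters, and muscle is known for a high content of these complexes. Several subunits of complex IV come in pairs, with a ubiquitous isoform and another of heart and skeletal muscle. H3K4me3 and H3K27ac mark active promoters, H3K4me2 covers promoters and enhancers, H3K4me1 covers enhancers and the flanks of promoters, H3K27me3 marks genes silenced by Polycomb, and H3K36me3 lies along transcribed gene bodies.

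Myoblast libraries held between 1858771 and 7033100 uniquely aligned reads and myotube libraries between 3298694 and 6271899. Reads were counted 1 kb either side of 1 transcription start site (TSS) per gene, and a level is this count over the mean of the same library in a window of that size. The mean was between 1.45 reads, for H3K27ac in myoblasts, and 5.50 reads, for H3K36me3 in myoblasts. A ratio of myotubes to myoblasts is given for promoters at which the sum of both libraries reached 20 reads, after 1 read was added to each count. It is divided by the ratio of the library means, which corrects for depth, and then scaled so that the median promoter of that mark is at 1. After the correction for depth and before this scaling, the median stood at 0.866 (H3K4me3), 0.593 (H3K4me2), 0.570 (H3K27ac), 0.870 (H3K4me1), 0.787 (H3K27me3) and 0.978 (H3K36me3), so all changes below are relative to the typical promoter. A scaled ratio of at least 2 or at most 0.5 is called. Intervals are exact 95% intervals that cover counting error only. As a check of the cell labels, 9 of 9 myotube markers such as Myog and Acta1 were called higher in myotubes for both H3K4me3 and H3K27ac. Of 7 markers of myoblasts and cycling cells, 4 were called lower for H3K4me3 and 5 for H3K27ac, and none higher. Their summed H3K4me3 level was 276-fold of the mean in myoblasts and 115-fold in myotubes. Among 6 markers of other cell types, Tnnt2, cardiac troponin T, was the 1 with enough reads for a ratio and was called higher for both marks, and Ptprc had at most 1 read for either mark. In such bulk samples, fewer cells that carry a mark and less of the mark per cell cannot be told apart.

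The muscle isoforms Cox6a2, Cox8b and Cox7a1 and their ubiquitous counterparts Cox6a1, Cox8a and Cox7a2 carry the main finding, so their promoters are shown first. Each line gives the 200 bases before the TSS, 5′ to 3′ on the strand of the gene, from the mm9 genome. Capitals mark matches to the motifs described below. The Cox6a2 stretch lies at chr7:135349881-135350080 on the minus strand and that of Cox6a1 at chr5:115798991-115799190 on the minus strand. Cox8b is at chr7:148086346-148086545 and Cox8a at chr19:7292107-7292306, both on the minus strand. Cox7a1 is at chr7:30968990-30969189 on the plus strand and Cox7a2 at chr9:79607661-79607860 on the minus strand. All 6 stretches end at the base before the first exon and overlap no other annotated gene.
Cox6a2: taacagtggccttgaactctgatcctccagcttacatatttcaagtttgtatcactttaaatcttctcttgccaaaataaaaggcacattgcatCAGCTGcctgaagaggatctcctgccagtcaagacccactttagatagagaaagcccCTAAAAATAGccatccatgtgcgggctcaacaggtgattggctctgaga
Cox6a1: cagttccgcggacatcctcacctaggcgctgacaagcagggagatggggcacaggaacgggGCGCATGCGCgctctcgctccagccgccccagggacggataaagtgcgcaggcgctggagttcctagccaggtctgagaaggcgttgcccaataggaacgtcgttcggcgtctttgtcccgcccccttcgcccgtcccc
Cox8b: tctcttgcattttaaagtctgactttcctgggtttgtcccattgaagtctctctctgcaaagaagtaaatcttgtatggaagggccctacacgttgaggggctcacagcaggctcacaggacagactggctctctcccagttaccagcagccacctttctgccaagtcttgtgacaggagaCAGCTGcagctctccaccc
Cox8a: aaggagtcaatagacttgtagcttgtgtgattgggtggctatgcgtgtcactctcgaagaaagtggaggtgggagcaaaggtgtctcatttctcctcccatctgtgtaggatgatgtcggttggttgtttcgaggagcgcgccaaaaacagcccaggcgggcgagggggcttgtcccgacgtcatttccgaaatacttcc
Cox7a1: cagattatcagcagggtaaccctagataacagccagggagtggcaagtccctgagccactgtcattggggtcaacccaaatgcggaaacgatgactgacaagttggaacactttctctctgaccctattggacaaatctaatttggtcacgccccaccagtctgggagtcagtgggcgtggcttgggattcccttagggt
Cox7a2: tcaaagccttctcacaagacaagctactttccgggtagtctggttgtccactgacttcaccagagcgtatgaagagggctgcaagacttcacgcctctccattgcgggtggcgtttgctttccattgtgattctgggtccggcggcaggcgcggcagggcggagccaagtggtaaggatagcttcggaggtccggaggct

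The stretches differ in base composition. Cox6a2 and Cox8b each hold 1 CG pair in these 200 bases and Cox7a1 holds 4, whereas Cox6a1 holds 20, Cox7a2 holds 12 and Cox8a holds 11. The capitals in Cox6a2 are a muscle E-box, CAGCTG, 106 bases before the TSS, and a match to the MEF2 consensus 49 bases before it. E-boxes are bound by MyoD and myogenin, and MEF2 factors act with them in muscle. Cox8b has an E-box 19 bases before its TSS. The capitals in Cox6a1 are 2 overlapping matches to GCATGCGC, the site of nuclear respiratory factor 1 (NRF1), 1 on each strand. No searched motif lies in the 200 bases of Cox7a1, Cox7a2 or Cox8a, which says only that these letters are not in that stretch. In the longer window searched next, Cox8a has an ETS match.

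The same motifs were searched on both strands from 250 bases before to 50 bases after each TSS. NRF1 matches were found in 12 of 91 members (13.2%), in 3.28% of all protein-coding promoters and in 5.84% of the 10386 promoters marked in both cell types, that is, with an H3K4me3 peak in each. AAGATGG, the core of the YY1 site, was found in 14 members (15.4%) against 7.08% and 8.23%, and in 16.0% of ribosomal protein and 22.5% of 40 proteasome promoters. CCGGAAG, an ETS site of the kind bound by the GABP factor, was found in 19 members (20.9%) against 11.4% and 21.0%, so that the share in members was that of marked promoters. TCAAGGTCA, the site of estrogen-related receptors, was found in 2 members, Atp5g3 and Sdhd, and in 0.297% of all promoters. The E-box was found in 12 members (13.2%) against 15.3% of all promoters. The MEF2 consensus was found in 1 member (1.10%), Cox6a2, against 2.86% of all promoters and 1.17% of marked promoters. A match to ETS, NRF1 or YY1 was present in 39 members (42.9%), in 19.9% of all promoters and in 31.5% of marked promoters. Among 81 cytoplasmic ribosomal protein promoters the share was 46.9%. The matches are a description of letters and show no binding.

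Cox6a2 was nearly free of active marks in myoblasts and carried them in myotubes. This gene encodes the heart and skeletal muscle isoform of subunit VIa of cytochrome c oxidase. Its H3K4me3 count was 1 read in the myoblast library and 44 reads in the myotube library, levels of 0.461-fold (interval 0.0117 to 2.57) and 17.1-fold (12.4 to 22.9) of the mean. The scaled ratio was 21.8 (7.28 to 1725). It rests on 1 myoblast read, so its size is uncertain, and the gene passed the limit of 20 reads through the myotube library. H3K4me2 went from 3 to 48 reads (scaled ratio 18.6, interval 7.85 to 122) and H3K27ac from 1 to 46 reads (16.2, interval 5.42 to 1279.9). The limit was passed in the same way for both. The intervals of the levels did not overlap between the cell types for any of these 3 marks. H3K4me1 was sparse, with 4 and 14 reads, under the limit of 20 for a ratio. Most of the myotube signal lay over the gene, with 33 of 44 H3K4me3 reads, 45 of 48 H3K4me2 reads and 39 of 46 H3K27ac reads downstream of the TSS. Cox6a2 is a short gene of 931 bp, so the window covers it whole.

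Cox6a2 was also 1 of the 2 members with enough H3K27me3 for a ratio. It had 17 H3K27me3 reads in myoblasts, a level of 3.10-fold (1.80 to 4.96), and 10 reads in myotubes, a level of 2.55-fold (1.22 to 4.69). These intervals overlap and the scaled ratio was 1.09 (0.428 to 2.42). The mark thus stayed above the library mean in both cell types, also in the 4 kb downstream of the window, where it was at 3.01-fold and 2.30-fold. Such flanks were not particular to Cox6a2. At Cox6a1 the 4 kb upstream of the window were at 1.73-fold in myoblasts and 3.06-fold in myotubes. Its 4 kb downstream were at 1.0-fold and 2.04-fold. Whether both kinds of mark sit on the same cells was not tested.

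Cox8b, the muscle isoform of subunit VIII, showed the same direction. It had 3 H3K4me3 reads in myoblasts and 54 in myotubes, levels of 1.38-fold (0.285 to 4.04) and 20.9-fold (15.7 to 27.3), with a scaled ratio of 13.3 (5.67 to 87.4). H3K4me2 went from 11 to 80 reads (10.3, interval 5.86 to 23.1) and H3K27ac from 8 to 77 reads (5.98, interval 3.21 to 15.9). Unlike Cox6a2, its promoter already carried H3K4me1 in myoblasts, with 32 reads, a level of 6.32-fold (4.32 to 8.92), and it held 29 reads in myotubes (scaled ratio 1.08, interval 0.628 to 1.84). H3K4me2 at 3.28-fold (1.64 to 5.86) and H3K27ac at 5.50-fold (2.38 to 10.8) were above the library mean in myoblasts as well. The H3K27ac of myotubes lay on both sides of the TSS, with 40 reads upstream and 37 downstream, whereas 47 of 54 H3K4me3 reads lay downstream.

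Cox7a1, the muscle isoform of subunit VIIa, stood apart from the other 2. H3K4me3 was at 2 reads in myoblasts and 7 reads in myotubes, which is under the limit for a ratio, and the levels of 0.922-fold (0.112 to 3.33) and 2.71-fold (1.09 to 5.59) overlap in their intervals. H3K4me2 was present in both cell types, with 30 and 32 reads and a scaled ratio of 1.62 (0.955 to 2.76). H3K27ac had 7 and 16 reads (1.47, interval 0.614 to 4.53). H3K4me1 had 34 reads in myoblasts and 17 in myotubes, levels of 6.71-fold (4.65 to 9.38) and 3.46-fold (2.02 to 5.55), with a scaled ratio of 0.611 (0.311 to 1.09). In myoblasts 15 H3K4me1 reads lay upstream and 19 downstream of the TSS, with the fullest 100 bp 250 bp downstream. For H3K4me2, 12 reads lay upstream and 18 downstream. Neither cell type had an H3K4me3 peak at this promoter. None of the marks tested at Cox7a1 was called.

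**Figure D1:**
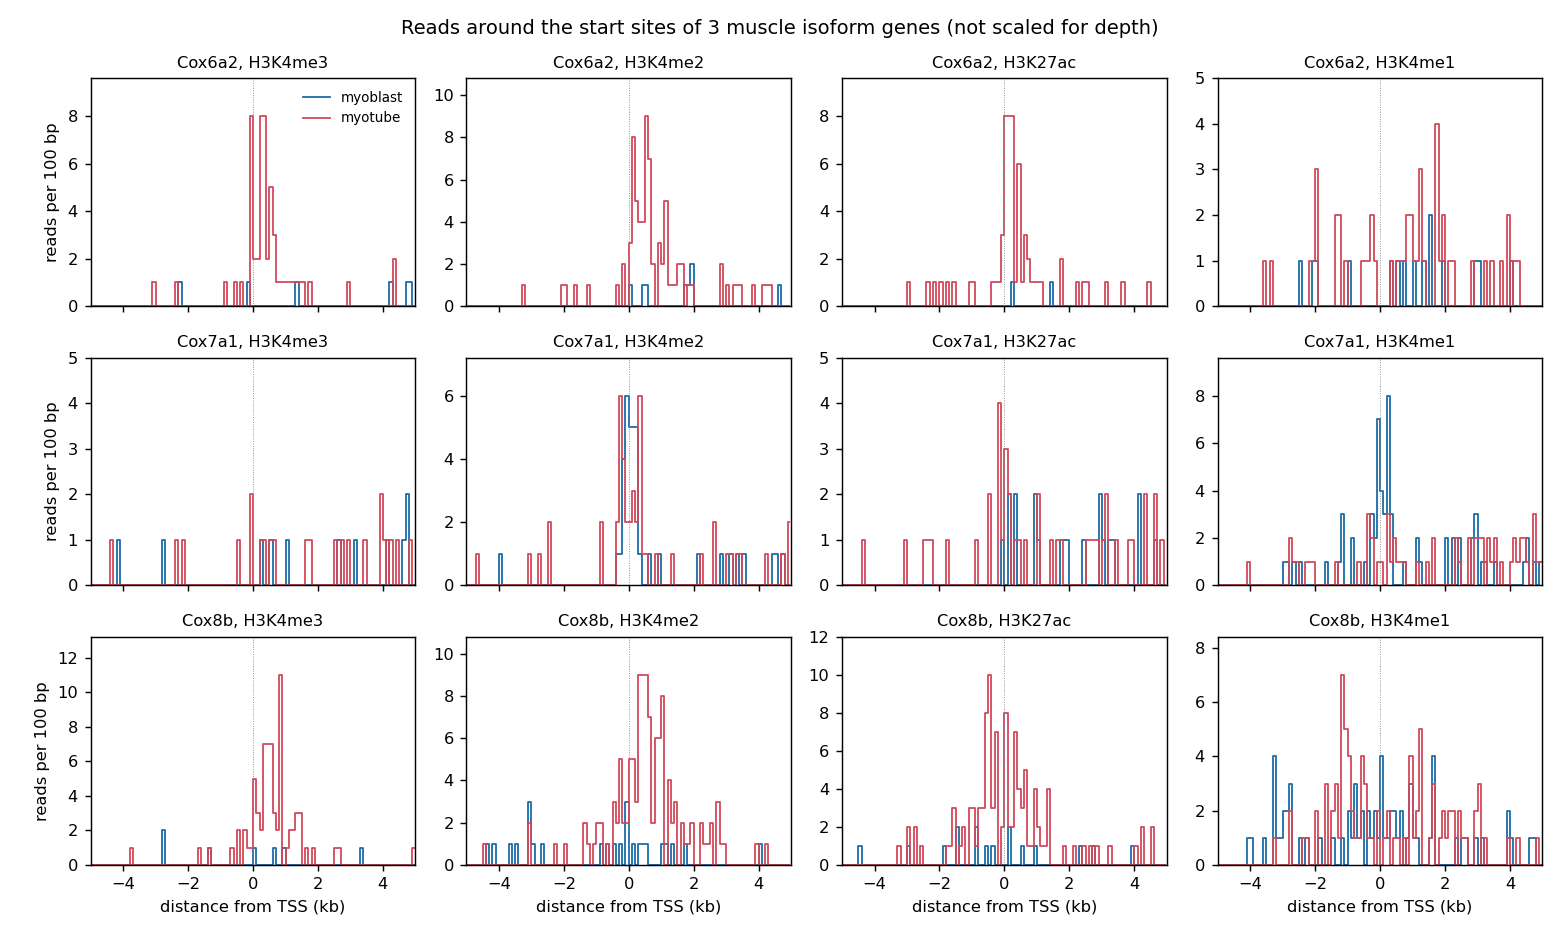
Reads in bins of 100 bp (y axis, not scaled for depth) against the distance from the TSS in kb (x axis) for 3 muscle isoform genes and 4 marks, with myoblasts in blue and myotubes in red, 1 library each. Cox6a2 and Cox8b gain H3K4me3, H3K4me2 and H3K27ac in the myotube libraries, whereas Cox7a1 has 2 and 7 H3K4me3 reads within 1 kb and H3K4me1 on both sides of the TSS in myoblasts.

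The ubiquitous isoforms were marked alike in both cell types. Cox6a1 had 100 and 112 H3K4me3 reads in myoblasts and myotubes, Cox7a2 had 98 and 110, and Cox8a had 106 and 94. Setting each isoform against its counterpart in the same 2 libraries gives an odds ratio that is free of the libraries' depth. For H3K4me3 it was 39.0 (6.38 to 1602) for Cox6a2 against Cox6a1 and 20.1 (6.20 to 104) for Cox8b against Cox8a. For Cox7a1 against Cox7a2 it was 3.10 (0.573 to 31.3), and this interval includes 1. The intervals of the 3 pairs overlap for this mark. No interval of the difference between pairs was computed, so the overlap does not decide whether Cox7a1 differs from the other muscle isoforms. For H3K4me2 the odds ratios were 20.6 (6.28 to 107), 9.94 (4.78 to 22.5) and 1.07 (0.565 to 2.01) for Cox6a2, Cox8b and Cox7a1. Here the interval of Cox7a1 lies below those of the other 2. For H3K27ac they were 31.4 (4.50 to 1373), 8.90 (3.97 to 22.7) and 1.71 (0.587 to 5.44). For H3K4me1 the pair of Cox7a1 was at 0.297 (0.0825 to 0.993), which is lower in myotubes, and the interval includes 1 with a window of 500 bp either side. This was not particular to Cox7a1, since pairs of isoforms of other tissues, given below, were also lower.

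In myotubes the muscle isoforms still held less H3K4me3 than their counterparts. The reads at Cox6a2 were 39.3% (27.1 to 56.1) of those at Cox6a1, those at Cox8b 57.4% (40.3 to 81.1) of those at Cox8a, and those at Cox7a1 6.36% (2.50 to 13.6) of those at Cox7a2. In myoblasts these shares were 1.0% (0.0251 to 5.70), 2.83% (0.575 to 8.50) and 2.04% (0.244 to 7.57). For H3K27ac in myotubes, Cox6a2 was at 170.4% (104 to 285) of Cox6a1, Cox8b at 87.5% (63.6 to 120.2) of Cox8a, and Cox7a1 at 33.3% (17.7 to 59.7) of Cox7a2. The windows are of equal length, so these shares compare levels directly.

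**Figure D2:**
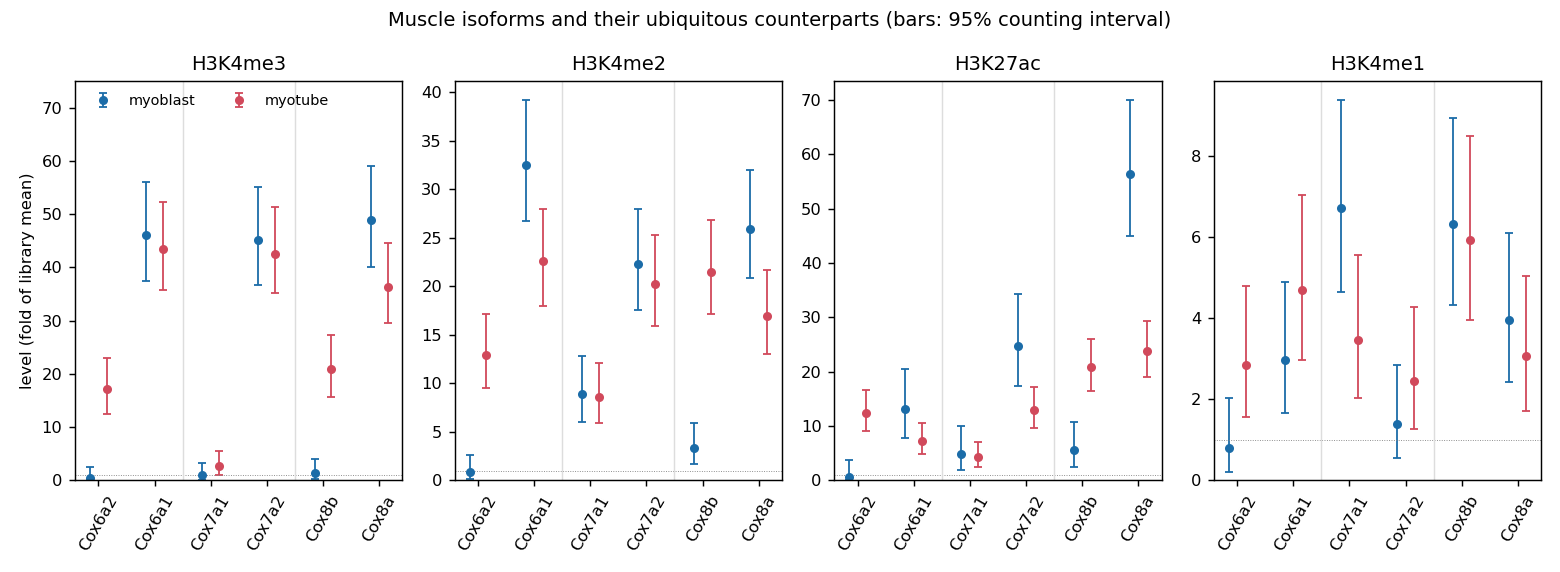
Level of 4 marks (y axis, fold of the library mean) at the muscle isoforms and their ubiquitous counterparts, with myoblasts in blue and myotubes in red, 1 library per point and exact Poisson 95% intervals as bars. H3K4me3 at Cox6a2 and Cox8b is at 17.1-fold and 20.9-fold in myotubes and at 0.461-fold and 1.38-fold in myoblasts, while the ubiquitous isoforms are high in both.

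The isoforms of other tissues had little or no H3K4me3 and H3K27ac. Cox6b2, Cox7b2 and Cox8c are known from testis, Cox4i2 from lung and low oxygen, and Ndufa4l2 from low oxygen. Cox6b2 had no H3K4me3 read in either library. The exact interval of this count of 0 reaches 1.70-fold in myoblasts and 1.43-fold in myotubes. That is above the chosen floor of 3 reads, which is 1.38-fold and 1.16-fold. Cox4i2 had 4 reads in myoblasts and none in myotubes, Cox7b2 had 1 and 1, Ndufa4l2 had 2 and 2, and Cox8c had 4 and 3. H3K27ac did not exceed 5 reads at any of these 5 genes. Their broadly expressed counterparts were high, for example Ndufa4 with 107 and 164 H3K4me3 reads and Cox6b1 with 76 and 94. Some of these genes carried marks of another kind. Ndufa4l2 had 34 H3K4me1 reads in myoblasts and 14 in myotubes, levels of 6.71-fold and 2.85-fold, and a scaled ratio of 0.509, just above the limit of 0.5 for a call. Cox6b2 had 16 H3K4me1 reads in myoblasts and 2 in myotubes, which is under the limit of 20 for a ratio. The H3K4me1 odds ratio was 0.164 (0.0273 to 0.813) for Cox4i2 against Cox4i1 and 0.118 (0.0098 to 0.796) for Cox6b2 against Cox6b1. It was 0.227 (0.0621 to 0.764) for Ndufa4l2 against Ndufa4. For Cox7b2 against Cox7b the interval included 1. Cox8c had the most H3K27me3 of all members, with 24 reads in myoblasts (4.37-fold, interval 2.80 to 6.51) and 16 in myotubes (4.08-fold, interval 2.33 to 6.62).

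The remaining members were strongly marked in both cell types. An H3K4me3 peak in the deposited lists overlapped the window of 82 members in myoblasts and of 84 in myotubes, or 90.1% and 92.3%, against 48.7% and 48.9% of all protein-coding genes. Those with a peak in myotubes alone were Cox6a2 and Cox8b. Those without one in either were Cox7a1, the 5 isoforms of other tissues and Atp5l-ps1, and no member had a peak in myoblasts alone. The 82 members with a peak in both ranged in H3K4me3 from 13.4-fold to 103-fold of the mean in myoblasts and from 10.5-fold to 108-fold in myotubes. The highest was Atp5b, the catalytic beta subunit of ATP synthase, in myoblasts, and Ndufb9, an accessory subunit of complex I, in myotubes. The order of these 82 genes was largely shared by both cell types for H3K4me3 (Spearman's rho 0.83), less so for H3K27ac (0.68), H3K4me2 (0.65) and H3K4me1 (0.48). These are correlations across genes that share their libraries, given as a description.

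Over all 91 members the median H3K4me3 level was 43.3-fold in myoblasts and 40.3-fold in myotubes, where the promoters marked in both cell types had 33.6-fold and 28.3-fold. The 81 ribosomal protein promoters were at 49.8-fold and 43.4-fold. For H3K4me2 the members' medians were 28.3-fold and 21.5-fold, below and level with the 33.9-fold and 21.5-fold of marked promoters. H3K27ac was at 27.5-fold and 13.5-fold, where marked promoters had 25.4-fold and 13.8-fold. The 91 include members without a peak, so the 82 with a peak in both are the like set. Their medians were 45.2-fold and 41.9-fold for H3K4me3 and 29.2-fold and 22.4-fold for H3K4me2. For H3K27ac they were 31.6-fold and 14.9-fold, above those of marked promoters. The medians that follow are again over all 91. H3K4me1 was at 2.37-fold and 3.46-fold. H3K27me3 was below the library mean, at 0.729-fold and 0.510-fold, the same medians as in marked promoters.

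**Figure D3:**
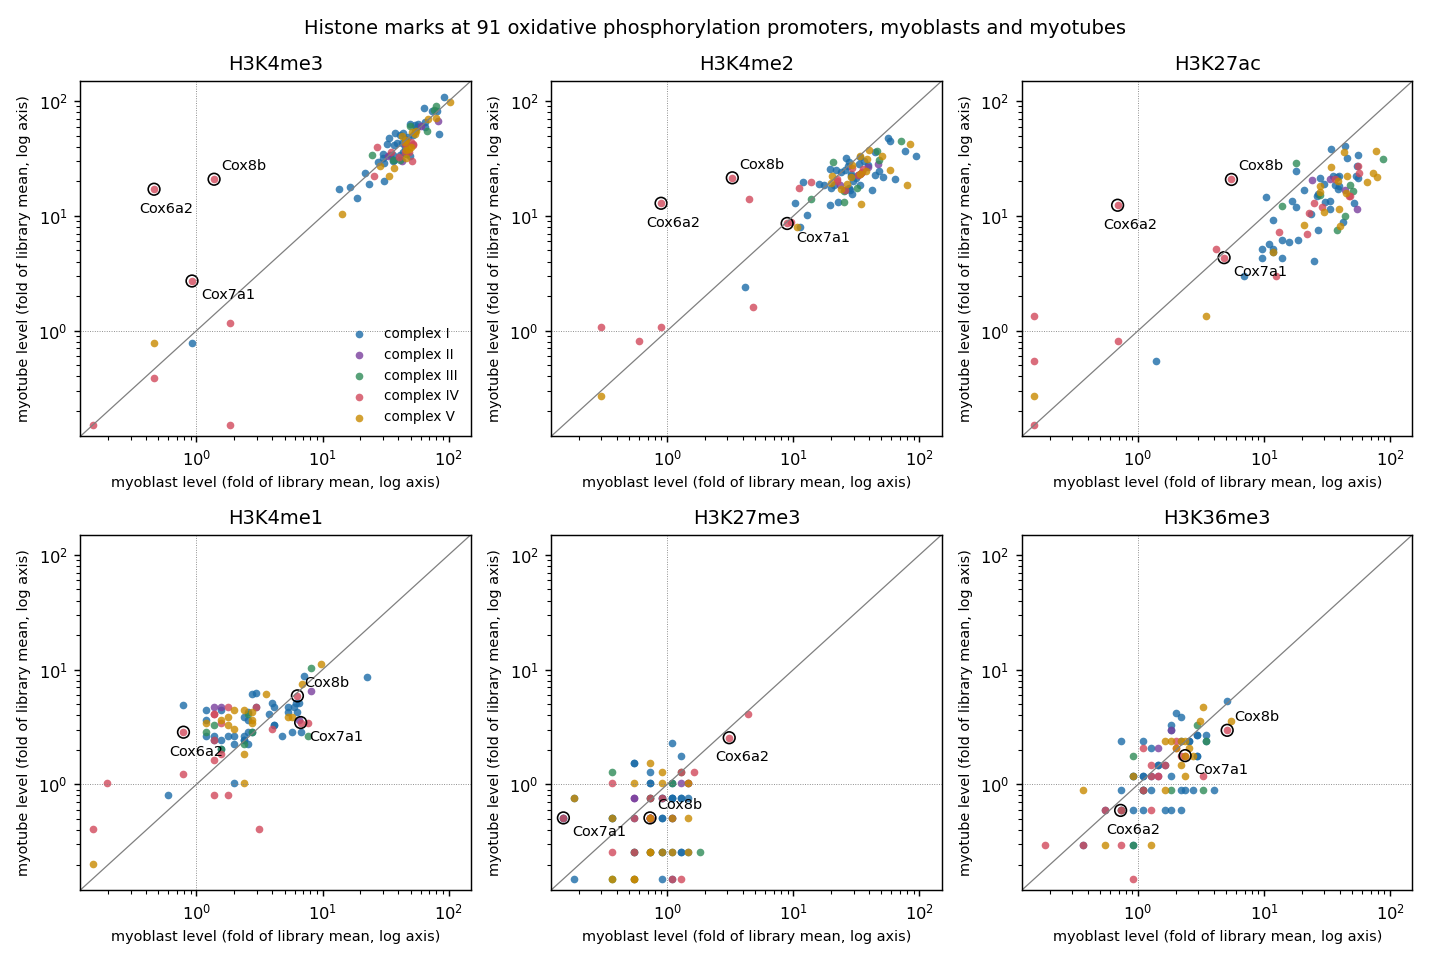
Level in myotubes (y axis) against level in myoblasts (x axis), both as fold of the library mean on log axes, for 91 members and 6 marks, coloured by complex, with levels of 0 drawn at the lower or left edge and equal levels on the diagonal. Most members lie together at high H3K4me3, H3K4me2 and H3K27ac, and the circled Cox6a2 and Cox8b lie far above the diagonal for these 3 marks.

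Around the TSS the active marks of the 82 members with a peak were narrow. The mean H3K4me3 level was highest 250 bp downstream of the TSS in both cell types, at 96.3-fold in myoblasts and 81.4-fold in myotubes. Within 300 bp of the TSS it was 9.02 times that of the flanks, 1 to 2 kb away, in myoblasts and 7.03 times in myotubes, compared with 5.52 and 3.81 times in marked promoters. For H3K27ac the same quotients were 17.2 and 9.68 in members and 9.25 and 5.69 in marked promoters. The mean H3K4me2 was highest 250 bp downstream in myoblasts and 450 bp downstream in myotubes. H3K4me1 was lower at the TSS than in the flanks, with a quotient of 0.654 in myoblasts and 0.882 in myotubes, against 0.717 and 0.830 in marked promoters.

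**Figure D4:**
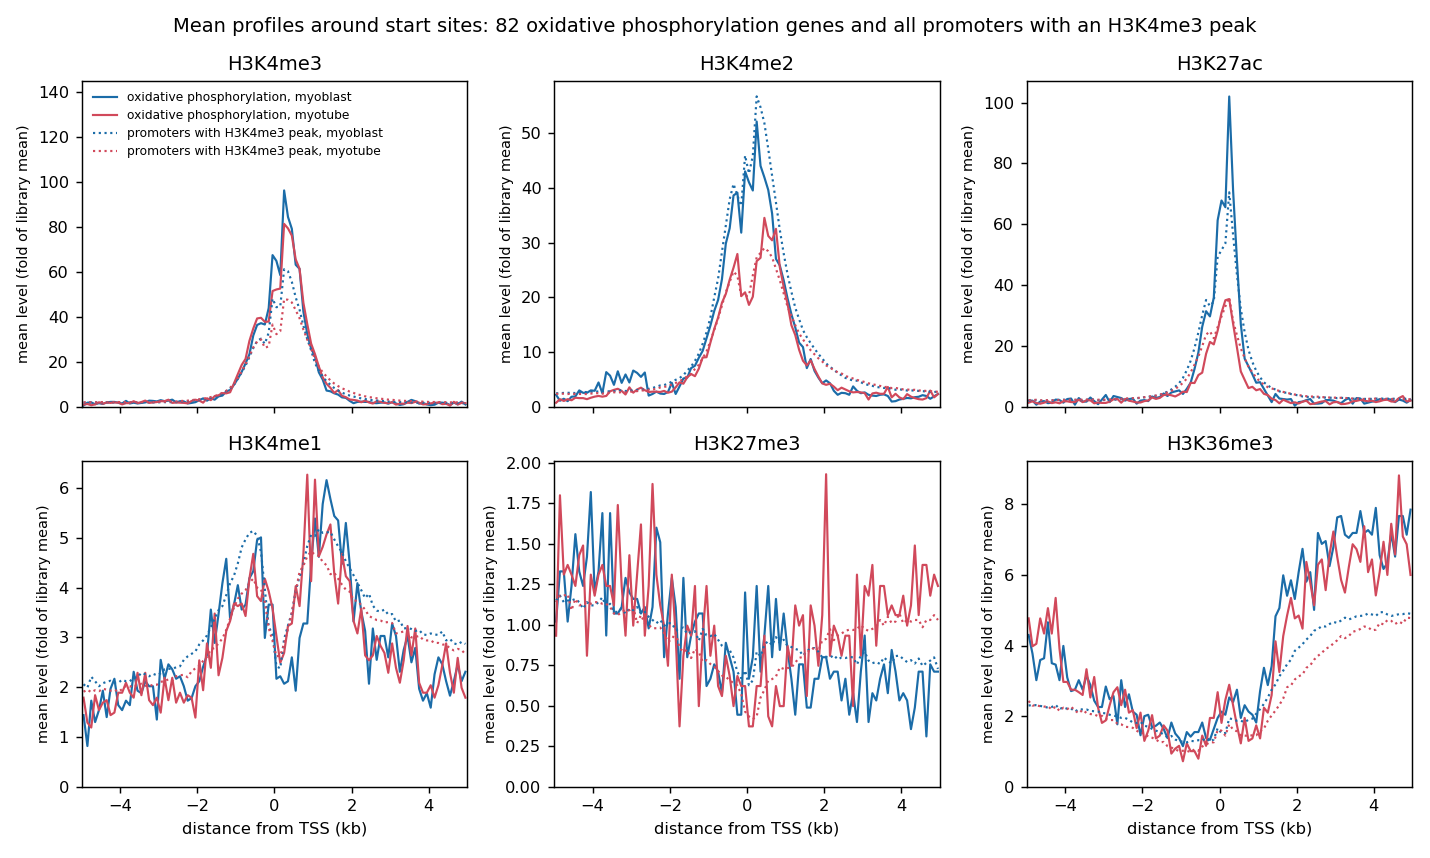
Mean level (y axis, fold of the library mean) of 6 marks against the distance from the TSS in kb (x axis) in bins of 100 bp, with solid lines for 82 members that carry an H3K4me3 peak in each cell type, dotted lines for all 10386 such promoters, myoblasts in blue and myotubes in red. The members' H3K4me3 reaches 96.3-fold in myoblasts and 81.4-fold in myotubes 250 bp downstream of the TSS, above the dotted lines.

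From myoblasts to myotubes, H3K4me3 moved little at most members. Of 84 tested members, 2 were called higher (2.38%), against 4.70% of all tested promoters, and none lower, against 4.56%. Both were the muscle isoforms Cox6a2 and Cox8b. The median scaled ratio was 1.14, and without the 3 muscle isoforms, the 5 isoforms of other tissues and Atp5l-ps1 all 82 ratios lay between 0.670 and 1.70. The lowest was that of Cox6c, a small subunit of complex IV, with 112 and 77 reads (0.670, interval 0.493 to 0.900). It was followed by the complex I accessory subunit Ndufb5 with 182 and 135 reads (0.721, interval 0.572 to 0.905).

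H3K4me2 was called higher at 10 of 87 tested members (11.5%), against 8.49% of all tested promoters, and lower at 1 (1.15%), against 9.14%. After Cox6a2 and Cox8b the highest was Cox7b, a small subunit of complex IV encoded on the X chromosome, with 15 and 52 reads (5.04, interval 2.92 to 10.1). Ndufs4, a complex I subunit known from Leigh syndrome, had 40 and 73 reads (2.75, interval 1.86 to 4.19), and Cox6b1, which faces cytochrome c, had 37 and 65 reads (2.64, interval 1.76 to 4.12). The others were Cox6c (2.40), Uqcrh (2.38), Ndufa2 (2.20), Ndufb3 (2.07) and Ndufab1 (2.07). The member called lower was Atp5e, the epsilon subunit of ATP synthase, with 269 and 70 reads (0.400, interval 0.300 to 0.517). Complex IV had 5 of 16 tested members called higher, among them the muscle isoforms Cox6a2 and Cox8b, and complex V had none of 17. The members' median of 1.27 lay above the 1.05 of marked promoters, and that of ribosomal protein promoters was 1.45 and of 40 proteasome promoters 1.56. Scaled by total reads alone, 3 members would be called higher and 9 lower.

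H3K27ac, relative to the typical promoter, was called higher at 5 of 84 tested members (5.95%), against 14.6% of all tested promoters, and lower at 10 (11.9%), against 13.0%. The members' median scaled ratio was 0.816, compared with 0.980 in marked promoters, 1.02 in ribosomal protein promoters and 0.959 in proteasome promoters. The 5 called higher were Cox6a2, Cox8b, Uqcrh, Ndufa12 and Ndufv2. Uqcrh, the hinge protein of complex III, had 26 reads in myoblasts and 107 in myotubes (2.76, interval 1.84 to 4.54). Ndufa12, an accessory subunit of complex I, had 15 and 54 reads (2.37, interval 1.38 to 4.74), and Ndufv2, an iron-sulphur core subunit, had 26 and 91 reads (2.35, interval 1.55 to 3.89). The lowest ratio was that of Ndufa5, a complex I accessory subunit, with 36 and 15 reads (0.298, interval 0.146 to 0.538). It was followed by Uqcrc1, a core protein of complex III, with 55 and 28 reads (0.357, interval 0.214 to 0.563). Atp5e (0.362), Sdhd (0.371), Ndufb8 (0.378), Uqcrfs1 (0.403), Cox7b (0.436), Ndufb5 (0.445), Atp5c1 (0.488) and Ndufb4 (0.50) were the others. The myoblast H3K27ac library was the smallest, with 1858771 reads, and scaled by total reads alone 47 members would be called lower and 2 higher.

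H3K4me1 was called higher at 21 of 73 tested members (28.8%), against 13.1% of all tested promoters, and lower at 2 (2.74%), against 13.2%. The share called higher was 14.8% in marked promoters, 25.5% of 47 tested ribosomal protein promoters and 6 of 30 tested proteasome promoters. These calls rest on few reads, since the 21 members had between 4 and 15 reads in myoblasts and between 13 and 31 in myotubes. Of the 16 members whose reads in both libraries summed to at least 50, none was called higher, against 8.80% of all such promoters. Within 500 bp of the TSS, 2 of 23 tested members were called higher, against 14.6% of all promoters. Ndufa12 had the highest ratio with 4 and 24 reads (5.94, interval 2.45 to 28.3). Ndufs1, the iron-sulphur subunit at the electron entry of complex I, had 6 and 22 reads (3.90, interval 1.71 to 13.1). The 2 called lower were Uqcrq, a small subunit of complex III, with 39 and 13 reads (0.416, interval 0.194 to 0.758) and Ndufa13, also called GRIM-19, with 114 and 42 reads (0.444, interval 0.300 to 0.628). Ndufa13 had the most H3K4me1 of all members in myoblasts, at 22.5-fold, and also the second lowest H3K4me2 ratio, with 214 and 78 reads (0.559, interval 0.422 to 0.722). Its window also holds the TSS of Tssk6, so these marks cannot be assigned to either gene.

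**Figure D5:**
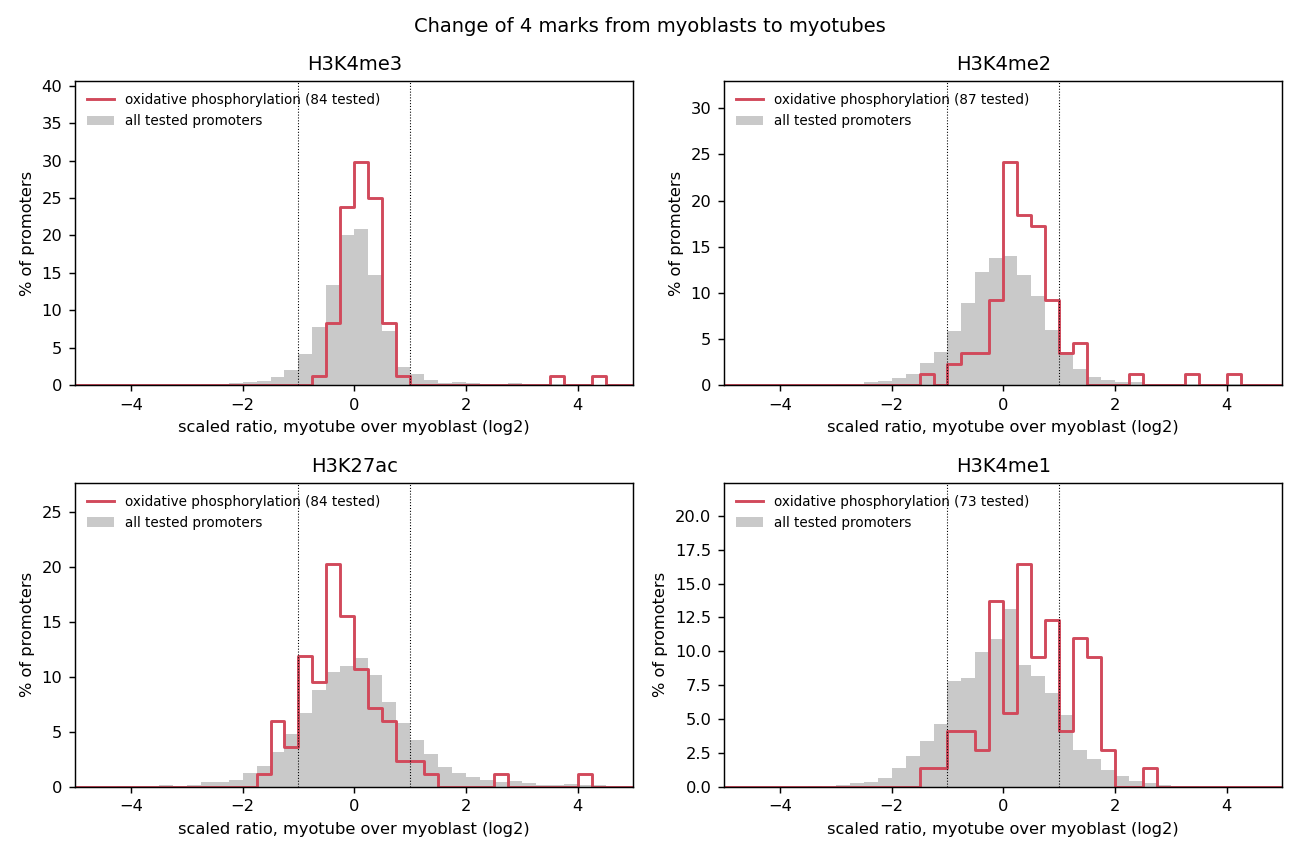
Share of promoters (y axis, %) by scaled ratio of myotubes to myoblasts (x axis, log2) for 4 marks, with all tested promoters as grey bars, members as a red line and the limits of a call as dotted lines. Cox6a2 and Cox8b are the 2 members far to the right for H3K4me3, H3K4me2 and H3K27ac, and the members' line is shifted to the right for H3K4me1 (median 1.43) and to the left for H3K27ac (median 0.816).

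Members called in 1 direction for at least 2 marks were 7. The share of all promoters called in this way was not counted, so the 7 are listed as a description only. Cox6a2, Cox8b and Uqcrh were called higher for 3 marks. Uqcrh differed from the muscle isoforms in that its H3K4me3 was high in both libraries, with 107 and 156 reads (1.41), and the other mark was H3K4me1, with 6 and 14 reads (2.54, interval 1.0 to 8.80). Ndufa12 was called higher for H3K27ac and H3K4me1. Ndufa2, an accessory subunit of complex I, and Ndufab1, the mitochondrial acyl carrier protein, were called higher for H3K4me2 and H3K4me1. Atp5e was called lower for H3K4me2 and H3K27ac, and its H3K4me3 had 80 and 67 reads (0.815). Uqcrh shares its window with Lrrc41 and Ndufa2 with Ik, so the marks cannot be assigned to either gene of these pairs.

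The 4 genes of complex II, succinate dehydrogenase, which also works in the citric acid cycle, showed no call for H3K4me3. Sdha, the flavoprotein, had 130 and 156 H3K4me3 reads, Sdhb, the iron-sulphur protein, 93 and 78, and the membrane anchors Sdhc and Sdhd 72 and 86 and 180 and 175. Their H3K4me2 ratios lay between 1.03 and 1.35. H3K27ac was called lower at Sdhd, with 79 and 42 reads (0.371, interval 0.246 to 0.540), while Sdhc was at 1.48 with 35 and 76 reads. H3K4me1 was called higher at Sdha, with 7 and 23 reads (3.56), and at Sdhd, with 8 and 23 reads (3.17). Sdhd thus moved in opposite directions for these marks, and it shares its promoter with Timm8b.

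By complex, the median H3K4me3 ratio was 1.21 for complex I, 1.05 for complex II, 1.12 for complex III, 1.02 for complex IV and 1.10 for complex V. The complexes are those assigned by symbol, with the members that are no subunits kept in. The interval of the ratio lay above 1 at 14.3% of all tested promoters. Among members it did so at 11 of 41 tested in complex I, 0 of 4 of complex II, 4 of 8 of complex III, 3 of 14 of complex IV and 1 of 17 of complex V. For H3K27ac the medians were 0.871, 0.883, 0.652, 0.860 and 0.720 in the same order. The interval lay below 1 at 22.1% of all tested promoters. Among members it did so at 6 of 41 tested in complex I (14.6%), 2 of 4 of complex II, 5 of 8 of complex III, 4 of 15 of complex IV and 6 of 16 of complex V. Relative to the typical promoter, then, acetylation lay lower in the median of every complex while H3K4me3 did not.

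H3K27me3 could be compared at 2 members, Cox8c (1.21, interval 0.588 to 2.33) and Cox6a2 (1.09), and neither was called, against 6.69% of all tested promoters higher and 10.7% lower. H3K36me3 in the promoter window was called higher at 1 of 28 tested members, against 10.1% of all, and lower at 3, against 12%. The higher one was Ndufa4l2, with 11 and 14 reads (2.08, interval 0.895 to 5.16). The lower ones were Ndufb9 (22 and 3 reads, 0.290), Uqcr10 (18 and 3 reads, 0.351) and Cox5b (18 and 4 reads, 0.439).

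Along whole genes, where H3K36me3 is usually read, the members' median level was 5.11-fold of the mean in myoblasts and 4.26-fold in myotubes. None of 85 tested members was called higher, against 6.97% of all tested genes, and 4 were called lower (4.71%), against 6.94%. The 4 were Atp5l, a subunit of the membrane part of ATP synthase (54 and 12 reads, 0.377), Ndufa2 (33 and 8 reads, 0.422), Cox7b2 (73 and 21 reads, 0.475) and Cox5b (31 and 9 reads, 0.499). Cox7b2 lay below the library mean in both cell types, at 0.252-fold in myoblasts and 0.118-fold in myotubes, so its call compares levels without enrichment. The median scaled ratio was 0.899, compared with 0.963 in genes with a marked promoter and 0.603 in ribosomal protein genes. Atp5b had the highest level in myoblasts, at 18.6-fold, and was at 10.0-fold in myotubes (0.528, interval 0.423 to 0.647). Ndufs7 was the highest in myotubes, at 21.6-fold. No call was made at the muscle isoforms, whose genes are short. Cox8b had 30 and 12 reads (0.669, interval 0.298 to 1.28) and Cox7a1 had 16 and 7 (0.751, interval 0.243 to 1.79). Cox6a2 had 4 and 1, which was under the limit for a ratio. The 4 kb downstream of the Cox6a2 window, past the gene's end, held 5 reads in myoblasts and 33 in myotubes (0.455-fold and 4.89-fold). The 4 kb upstream of it held 1 and 2 reads. At Cox6a1 the 4 kb downstream were at 10.5-fold and 9.64-fold. Which gene these reads belong to was not tested.

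Some members shared their promoter window with another gene. The window of 28 members (30.8%) held the TSS of another protein-coding gene, against 11.7% of all genes and 21.2% of marked promoters, and in 23 (25.3%) the neighbour was transcribed divergently, against 8.89% and 17.4%. Among 28 other genes of the pathway, described last, the shares were higher, at 39.3% and 32.1%. Examples are Sdhd with Timm8b, Ndufs1 with Eef1b2, Ndufa7 with Rps28 and Cox4i1 with Cox4nb. Further members named above that share a window include Ndufa13 with Tssk6, Ndufa5 with Asb15, Ndufb5 with Mrpl47 and Ndufb9 with Tatdn1. In these windows the marks of both genes are counted together, and Cox4i1 and Cox4nb, both members, hold nearly the same reads. None of the muscle isoforms or isoforms of other tissues shared its window. The median ratio of observed to expected CG pairs in 1 kb around the TSS was 0.731 in members, 0.572 in all genes and 0.764 in marked promoters.

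Other genes of the pathway, such as cytochrome c (Cycs), cytochrome c1 (Cyc1) and assembly factors of the complexes, were counted as a list of 28 genes. For H3K4me3 none was called higher and 1 lower, and for H3K4me2 likewise none higher and 1 lower. For H3K27ac 1 was called higher and 5 lower, with a median of 0.733. For H3K4me1 2 of 24 tested were called higher and none lower, with a median of 1.34. The shares of all promoters given above apply to these counts too.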

How the data were processed

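Per the labels the cells were at passage 15 to 18. They state 15 cycles of PCR and a size of 250 bp for the library fragments, adaptors included. The authors aligned the reads with Mosaik 1.0.1384 to mm9 (NCBI build 37) and kept unique alignments. Their deposited read files hold 1 line per 34-bp read, each a count of 1, and the deposited MACS peak lists hold a score per peak, of which the H3K4me3 lists were used. The settings of MACS, the merging of runs and the treatment of duplicates are not given in the sources used here. The myoblast H3K27ac and H3K27me3 peak lists carry each other's mark in their names and, like those of the other marks, were not used.

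Reads on chromosomes 1 to 19 and X were extended to 150 bp and their midpoints counted 1 kb either side of the TSS, a window of 2001 bp. The library mean is total reads spread over 2555806925 bases other than N. The TSS is the GENCODE M1 start site of the gene's protein-coding transcripts with the most H3K4me3 reads in both cell types together. Levels have exact Poisson intervals, ratios exact conditional binomial intervals (without the added read) and isoform pairs exact conditional odds ratios. With 1 library per mark and cell type no p-value was computed, and the limit of 20 reads for a ratio is a chosen filter. The members and gene lists were chosen with earlier results of these data known. The rule for named genes gives the muscle isoforms, their counterparts, the isoforms of other tissues and the Sdh genes. Per mark it adds the 2 highest and 2 lowest ratios, the highest level and members called for at least 2 marks. Genes outside it were named after their values were seen. Alternatives were 500 bp either side of the TSS, 1 read per position and strand, the outermost TSS, reads not extended, scaling by total reads, at least 50 reads, 5 added reads, the median window as background, members without shared promoters, a MACS score of at least 100, peaks over at least 50% of the window and gene bodies without their first 1 kb. Subunits only, and scaling to promoters that carry an H3K4me3 peak in each cell type, were added after seeing the data. The steps were tested on simulated data. The software was scipy 1.17.1, numpy 2.4.6, matplotlib 3.10.9 and pandas 2.3.3 under Python 3.11.15.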

Additional observations from a re-analysis of the deposited data

How the results depend on the processing

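Of 235 values under the alternatives, 191 were judged the same, among them all 44 with 1 read per position and strand and all 17 with subunits only. A median had to stay within its spread across genes, which is not counting error, and a count within 1.5 times. An isoform pair was judged only by whether its interval lay above 1, lay below 1 or included it, so its odds ratio could change in size. For H3K4me3, H3K4me2 and H3K27ac the intervals of the Cox6a2 and Cox8b pairs lay above 1 under the alternatives run for pairs. These were 500 bp either side, 1 read per position and strand, and the outermost TSS. The outermost TSS left the odds ratios of these pairs unchanged, so it could not test them. For H3K4me1 the intervals of these pairs included 1, and the Cox8b odds ratio went from 1.21 to 0.631 with 500 bp either side. The interval of Cox7a1 against Cox7a2 for H3K4me1 included 1 with that window (0.704). Scaled by total reads, the median ratio was 0.987 for H3K4me3, 0.755 for H3K4me2 and 0.465 for H3K27ac. Calls were then 3 higher and 9 lower for H3K4me2, 2 higher and 47 lower for H3K27ac and 4 lower for H3K4me1. This follows from the scaling, since the typical tested promoter held a smaller share of the myotube reads than of the myoblast reads. Scaled to promoters with an H3K4me3 peak, 4 members were called lower for H3K4me1 and 3 higher for H3K36me3. With at least 50 reads, H3K4me1 had no call and a median of 1.15, and H3K4me3 had 1 member called higher, Cox8b, because Cox6a2 with 45 reads was no longer tested. With 500 bp either side, the H3K4me1 median was 1.07 with 2 called higher and 1 lower, H3K4me2 had 3 called lower, and the H3K36me3 median was 0.722 with 0 called. Without shared promoters, H3K4me1 had 10 called higher and 1 lower, H3K27ac 6 lower and H3K36me3 1 lower, out of fewer members. With 5 added reads H3K36me3 had 0 called higher and 1 lower, and with the outermost TSS H3K4me1 had 1 lower. Levels depend on the window and the background. With 500 bp the medians were 55.3 and 50.4 for H3K4me3, 45.4 and 21.1 for H3K27ac in myoblasts and myotubes and 33.3 for H3K4me2 in myoblasts. Over the median window they were 47.0 and 52.0 for H3K4me3, 47.5 and 40.0 for H3K4me2, 40.0 and 25.0 for H3K27ac, 4.0 and 5.67 for H3K4me1 and 3.00 and 2.00 for H3K36me3. Other causes of these differences were not tested.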
